A study of Mus musculus with 8 samples.

Results

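In phospho-CREB1 ChIP-seq of mouse muscle, 1501 regions near the ends of protein-coding genes had a peak in neither library of tumor-bearing (C26) mice and a peak in both libraries of control (CTRL) mice. They were found by merging the peaks of the 4 phospho-CREB1 lists wherever they overlapped by at least 1 bp. A merged region was kept when both CTRL lists had a peak in it, neither C26 list had one, and any of its summits lay within 1000 bp of either end of a protein-coding gene. The 1501 regions came from 17607 merged regions in all, of which 8972 had a peak in both CTRL lists and 2761 of those had none in either C26 list. They were 24.5% of the 6130 gene-end regions with a peak in both CTRL lists. The presence and absence of peaks set the choice, so the regions were selected on the peak calls of all 4 libraries, and these values describe how they were picked and carry no test.

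Phosphorylated CREB1 was profiled by chromatin immunoprecipitation and paired-end sequencing (ChIP-seq) in muscle of male Balb/c mice. C26 mice had been injected under the skin, at 2 months of age, with C26 murine adenocarcinoma cells, which form tumors and lead to cachexia, a loss of muscle mass, and CTRL mice were their controls. Each group had 2 phospho-CREB1 libraries, and there were 4 input libraries, and nothing in the labels says that the 2 libraries of a group came from separate animals. The labels name the gastrocnemius and the extraction protocol the quadriceps, the protocol leaves the choice between a CREB and a phospho-CREB1 antibody unstated, and it describes rolipram or vehicle for C26 mice without saying which the ChIP-seq mice received. The lists held 7482 peaks in C26 replicate 1, 4051 in C26 replicate 2, 10835 in CTRL replicate 1 and 14975 in CTRL replicate 2, and read depth is unknown. A region without a peak is one that the caller did not pass in that library, and it may still be bound. In whole muscle, fewer cells with a bound site and less binding per cell cannot be told apart.

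CREB1 is a basic leucine zipper transcription factor that is phosphorylated by protein kinase A and other kinases when cAMP rises, and it then recruits the coactivators CBP and p300. It binds the cAMP response element (CRE), a palindrome usually found close upstream of a gene's start, or a single arm of that palindrome, and CpG methylation of the site weakens its binding. In skeletal muscle, cAMP signaling downstream of beta-adrenergic receptors is known for its effects on fiber size and on metabolic genes, among them the coactivator gene Ppargc1a.

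The promoters of the CTRL-only regions seldom held the full palindrome TGACGTCA. Promoter windows of 300 bp, from 250 bp before to 50 bp after a gene's start, were taken from RefSeq (GRCm38.p6), and 1097 of the 1501 regions overlapped one. The palindrome stood in 12 of these 1097 windows, and the 6 strongest of the 12 are shown, 5′ to 3′ on the strand of the gene, with the palindrome in capitals:
Tspyl4, chr10:34297361-34297420, plus strand: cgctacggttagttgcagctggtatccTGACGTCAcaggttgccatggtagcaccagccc
Bcas2, chr3:103171676-103171704, plus strand: agcggcgtgtgTGACGTCAttccaggcgc
Clstn3, chr6:124464767-124464796, minus strand: cctggctgtgcTGACGTCAtcctgcagtag
Alg13, chrX:144317985-144318014, plus strand: tgcgagccgccTGACGTCAcatccgctccc
Ptprs, chr17:56476457-56476486, minus strand: ggcggaaggggTGACGTCAccggctggggg
Cds1, chr5:101764992-101765051, plus strand: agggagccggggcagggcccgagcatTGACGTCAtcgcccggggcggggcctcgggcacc
In these 6 promoters the palindrome's center lay 26, 4, 11, 6, 7 and 5 bp from the CTRL replicate 2 summit, in the order shown. The other 6 were the promoters of Retreg1, Mcam, Bend6, Spag4, Peg3 and Gusb, with distances of 2 to 54 bp.

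Most of the strongest CTRL-only regions held no palindrome. The 150 bases before the start of Pdk1, Taf10 and Las1l, which belong to strong regions and differ in this motif, are shown with any TGACG, a single arm of the palindrome, or its reverse complement CGTCA, in capitals:
Pdk1, chr2:71873074-71873223, plus strand: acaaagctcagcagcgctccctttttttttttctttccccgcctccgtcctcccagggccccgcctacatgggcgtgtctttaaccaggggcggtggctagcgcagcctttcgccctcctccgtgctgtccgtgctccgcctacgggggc
Taf10, chr7:105744339-105744488, minus strand: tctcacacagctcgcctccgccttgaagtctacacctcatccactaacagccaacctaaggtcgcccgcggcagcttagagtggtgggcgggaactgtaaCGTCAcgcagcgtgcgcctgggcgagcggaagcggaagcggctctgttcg
Las1l, chrX:95956904-95957053, minus strand: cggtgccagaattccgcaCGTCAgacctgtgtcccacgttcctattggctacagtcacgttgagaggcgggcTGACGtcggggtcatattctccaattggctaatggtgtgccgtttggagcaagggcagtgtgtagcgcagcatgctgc
Pdk1 held neither form in its whole 300 bp window, the stretch of Taf10 held 1 and that of Las1l held 2. The same stretches of Nipsnap2, Zc3h11a and Zfp318, not shown, held none, so 4 of 6 such stretches lacked the arm. Among the whole 300 bp windows, that of Nipsnap2 held 1 arm, that of the Zbed6 and Zc3h11a region 1 and that of Zfp318 0. Those of Taf10 and Las1l held 1 and 2, the same as their stretches.

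For comparison, the 3 strongest gene-end regions with a peak in all 4 libraries and a palindrome in the promoter were those of Nup133, Bdp1 and Nup214, printed here with the palindrome in capitals:
Nup133, chr8:123949356-123949415, minus strand: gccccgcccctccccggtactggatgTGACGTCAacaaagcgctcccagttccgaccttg
Bdp1, chr13:100104087-100104146, minus strand: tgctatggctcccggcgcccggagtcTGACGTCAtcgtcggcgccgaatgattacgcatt
Nup214, chr2:31974380-31974439, plus strand: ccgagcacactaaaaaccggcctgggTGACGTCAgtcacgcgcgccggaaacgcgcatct
In these 3 promoters the palindrome's center lay 3, 2 and 18 bp from the CTRL replicate 2 summit. Their fold enrichments in that list were 157, 184 and 141, against 21.2 at the highest of the CTRL-only regions.

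The full palindrome was found in 1.09% of the CTRL-only windows (12 of 1097, 95% Wilson interval 0.627 to 1.90%), in 3.30% of the windows at regions with a peak in both CTRL and 1 C26 library (59 of 1790), in 11.3% of those with a peak in all 4 libraries (213 of 1878), and in 2.23% of all promoter windows (475 of 21263, 2.04 to 2.44%). The share in CTRL-only windows thus lay below that of all promoters, and the intervals did not overlap. These intervals cover counting error only. The single arm TGACG, searched on both strands and contained in the palindrome, was found in 25.5% of CTRL-only windows (280, interval 23.0 to 28.2%), 39.1% of windows at regions with 1 C26 peak list, 62.1% of those with both, and 23.6% of all promoters. CTRL-only promoters were therefore close to the genome's promoters in the share with this motif. The arm holds a CpG, and the median number of CpG dinucleotides was 23 in CTRL-only windows and 13 in all promoters. The part of CpG content in this share was not tested. Allowing 1 mismatch in the palindrome, or the motif TGACGNNCGTCA, gave 7.93% in CTRL-only windows, 12.4% and 30.8% at regions with 1 and both C26 lists, and 13.0% in all promoters. A motif match is a description of letters and not a binding site.

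Motif content also moved with peak strength. Strength is the percentile of a peak in its list by −log10 q-value, the strongest peak being at 100, and each region was placed by the lower of its 2 CTRL percentiles. Up to percentile 25 TGACG was found in 20.4% of CTRL-only windows (88 of 431) and in 18.6% of windows at regions with a peak in any C26 list (45 of 242). From 25 to 50 the shares were 24.9% (100 of 402) and 27.7% (160 of 578), and from 50 to 75 they were 33.9% (86 of 254, interval 28.3 to 39.9%) and 42.6% (499 of 1170, interval 39.8 to 45.5%). Above 75 they were 60.0% (6 of 10) and 69.2% (1162 of 1678). The intervals of the 2 classes overlapped in all 4 bands, though only just from 50 to 75. The palindrome shares by band were 0.464, 0.498, 2.76 and 10.0% in CTRL-only windows, from 2, 2, 7 and 1 windows, against 0, 1.21, 1.88 and 14.5% at regions with a C26 peak.

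Where TGACG was present it also lay farther from the summit. Its median distance from the CTRL replicate 2 summit was 51 bp in CTRL-only regions (n = 280), 38 bp at regions with 1 C26 list (n = 700) and 19 bp at regions with both (n = 1166). It lay within 50 bp of that summit in 49.6% (interval 43.8 to 55.5%), 58.7% (55.0 to 62.3%) and 73.5% (70.9 to 76.0%) of these windows, in the same order. CTRL peaks at the CTRL-only regions were also the weakest of the 3 classes, and the part of peak strength in this distance was not tested.

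**Figure D1:**
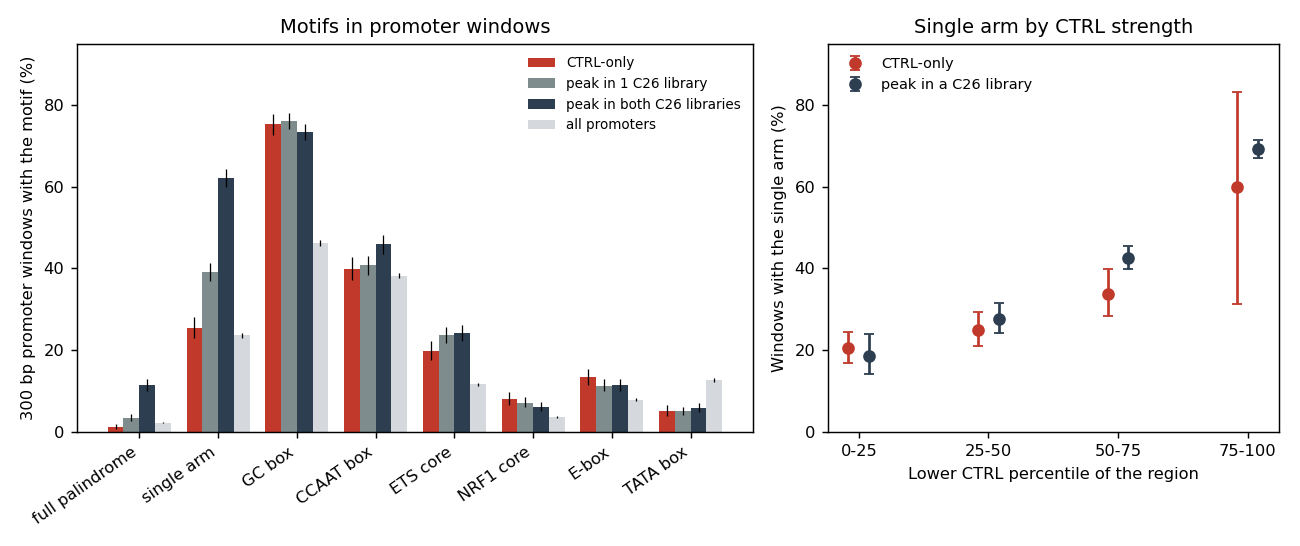
Left, the percentage of 300 bp promoter windows that hold each motif, for CTRL-only regions, regions with a peak in 1 C26 library, regions with a peak in both C26 libraries, and all promoters, with 95% Wilson intervals; the single arm is TGACG. Right, the percentage with TGACG by the region's lower CTRL percentile, which is 20.4% in the weakest and 60.0% in the strongest CTRL-only regions, against 18.6% and 69.2% at regions with a C26 peak.

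Other promoter motifs differed less between the classes. GGGCGG, the GC box bound by Sp factors, stood in 75.4% of CTRL-only windows, 76.1% of windows at regions with 1 C26 list, 73.5% of those with both and 46.2% of all promoters. CCAAT, the site of NF-Y, stood in 39.9, 40.7, 45.9 and 38.2% in the same order. CCGGAAG, the core bound by ETS factors, stood in 19.9, 23.6, 24.2 and 11.6%. GCGCATGC, part of the site of NRF1, stood in 8.02% of CTRL-only windows (interval 6.56 to 9.78%), 7.10%, 6.02% and 3.52%. CACGTG, an E-box, stood in 13.3% (11.4 to 15.4%), 11.3, 11.4 and 7.84%. TATAAA stood in 56 of the 1097 CTRL-only windows, and in 5.03, 5.86 and 12.6% of the other sets. The CTRL-only windows had a median of 23 CpG dinucleotides, against 25 in both classes with a C26 peak and 13 in all promoters. In the GC box, NRF1, E-box and TATA motifs the intervals of the 3 classes with CTRL peaks overlapped, whereas CCAAT was less frequent in CTRL-only windows (37.1 to 42.9%) than at regions with both C26 lists (43.7 to 48.2%).

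The CTRL-only share of gene-end regions with a peak in both CTRL lists, 24.5%, had an interval of 23.4 to 25.6%. Of the other such regions, 2311 had a peak in both C26 lists, 2179 in C26 replicate 1 alone and 139 in C26 replicate 2 alone. Among the 2842 regions with a peak in both CTRL lists and away from gene ends the CTRL-only share was 44.3% (1260, interval 42.5 to 46.2%), so regions at gene ends had a C26 peak more often. The number depended on which libraries were used. Without C26 replicate 1 there were 3676 CTRL-only gene-end regions (60.0%), and without CTRL replicate 1 there were 3084 (38.4%). When each list was trimmed by −log10 q to the 4051 peaks of the shortest, 209 regions were CTRL-only at gene ends, 7.82% of those with a peak in both trimmed CTRL lists. Of the 1501 regions 49 were among them.

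By CTRL peak strength the CTRL-only regions stood below the gene-end regions with a C26 peak. They lay mostly in the weaker part of the CTRL replicate 1 list and around the middle of the CTRL replicate 2 list. Their fold enrichment over input, a value the authors' peak caller gave each peak and used here only within its list, had a median of 5.41 in CTRL replicate 1 (quartiles 4.40 and 6.77, range 2.77 to 14.7) and of 7.51 in CTRL replicate 2 (quartiles 6.02 and 9.30, range 3.03 to 21.2). The median percentile of their peaks was 35.4 in CTRL replicate 1, against 59.8 where 1 C26 list also had a peak and 86.0 where both did. In CTRL replicate 2 these medians were 53.2, 71.9 and 90.0. The strongest CTRL-only peak of CTRL replicate 1, at Zbed6 and Zc3h11a, ranked 1724 of 10835, and that of CTRL replicate 2, at Asf1a, ranked 1469 of 14975.

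The CTRL-only share went down with each step of strength until it reached 0. With the 6130 regions in 10 equal groups of 613 by their lower CTRL percentile, the CTRL-only share was 69.0% in the weakest group, then 54.8, 42.4, 34.1, 25.8, 13.2, 4.40 and 1.14%, and 0 of 613 in each of the 2 strongest groups, for which the Wilson interval allows up to 0.623%. The share with a peak in C26 replicate 1 was 27.6% in the weakest group and 100% in the strongest, and in C26 replicate 2 it was 7.34% and 98.2%. Where these regions did have a C26 peak, it was stronger where the CTRL peak was. In the 4 bands of CTRL percentile the median enrichment of the C26 replicate 1 peak was 4.43, 4.70, 5.31 and 9.52-fold, and that of the C26 replicate 2 peak was 5.43, 5.61, 6.31 and 9.80-fold, weakest band first. All of these values use the contrast that chose the regions and are descriptions.

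**Figure D2:**
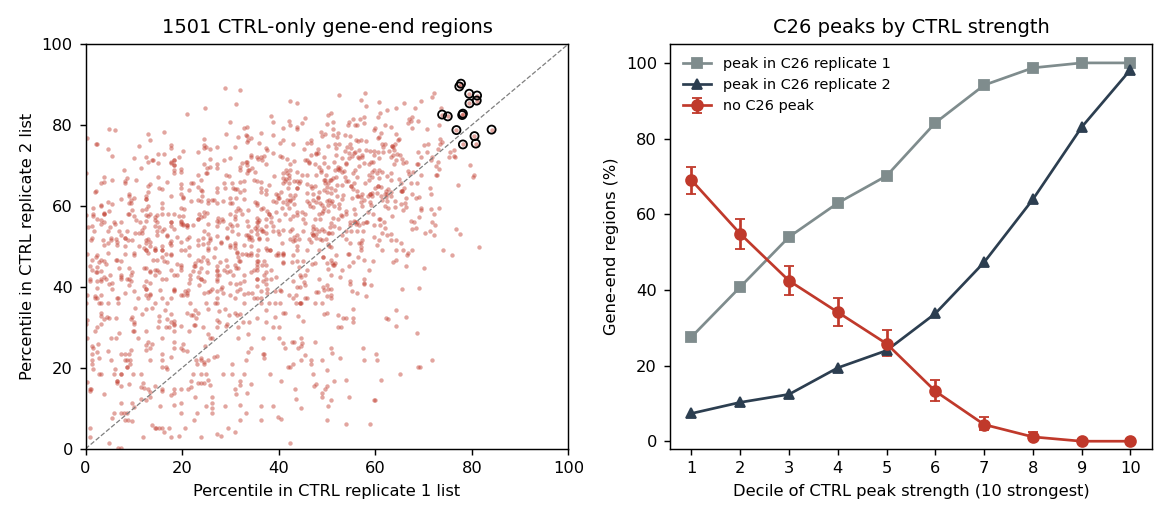
Left, each of the 1501 CTRL-only regions by the percentile of its peak in the CTRL replicate 1 list (x) and the CTRL replicate 2 list (y), 100 being the strongest, with the 15 strongest regions by the lower percentile circled. Right, the percentage of gene-end regions with no C26 peak (95% Wilson intervals), with a peak in C26 replicate 1 and with a peak in C26 replicate 2, in 10 groups of rising CTRL strength; the CTRL-only share is 69.0% in the weakest group and 0 in the strongest.

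CTRL peaks at CTRL-only regions were also narrower and their summits less sharply shared. The median peak width in CTRL replicate 1 was 398 bp at CTRL-only regions, 529 bp at regions with 1 C26 list and 742 bp at regions with both, and in CTRL replicate 2 it was 526, 674 and 864 bp. The summits of the 2 CTRL peaks of a region were a median of 57, 44 and 26 bp apart in the same 3 classes. A few of the regions with a peak in 1 C26 list lay close to the caller's threshold. Of the 2318 regions with a peak in 1 C26 list, 56 had a C26 −log10 q under 2 and 203 under 3. Among the weakest of these C26 peaks, that of Zfp691 in C26 replicate 1 had 2.53-fold and a −log10 q of 1.43. That of Mga in C26 replicate 2 had 3.74-fold and 1.49. Either region would have joined the CTRL-only regions had its C26 peak been missed.

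The 3 weakest CTRL-only regions, at Tbc1d24, Sar1b and Plpp3, all had 2.91-fold enrichment in CTRL replicate 1, and 6.12, 8.36 and 5.62-fold in CTRL replicate 2. At the distance limit, the regions just inside were Snx13 and Slc19a1 at 999 bp from a gene end and Sys1 at 1000 bp, and just outside were Cobll1 at 1004 bp, Git2 at 1009 bp and Dip2b at 1024 bp. A C26 peak was rarely close by. It was a median of 42784 bp away, within 10000 bp for 262 regions (17.5%), within 1000 bp for 44 (2.93%) and within 200 bp for 5. The nearest were at Spats2 (16 bp), Bmpr2 (129 bp) and Rasl2-9 (176 bp), and the rule itself excluded any overlap.

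The regions sat on gene starts. Strand was known for 1224 of the 1501, and 1198 of these (97.9%) were at a gene's start, while 26 were at its far end only. The nearest summit was a median of 50 bp from the gene end, against 36 bp for regions with 1 C26 list and 34 bp for regions with both. It lay within 100 bp in 68.4% of CTRL-only regions (interval 66.0 to 70.7%), 73.9% (72.1 to 75.7%) and 73.5% (71.6 to 75.2%) of the 3 classes in that order. The nearest summit was taken over all libraries with a peak, and regions with C26 peaks had more summits. These distances and shares are therefore not a like comparison of the classes. The CTRL replicate 2 summit was a median of 3 bp downstream of the start at CTRL-only regions (n = 1184), 12 bp upstream at regions with 1 C26 list (n = 1853) and 19 bp upstream at regions with both (n = 1906). It was upstream of the start in 48.7% (45.9 to 51.6%), 54.2% (52.0 to 56.5%) and 58.8% (56.6 to 61.0%) of them.

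**Figure D3:**
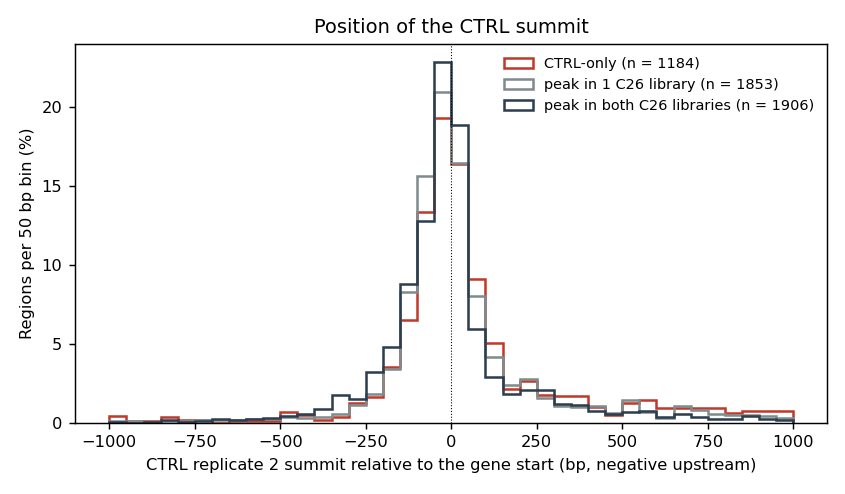
Percentage of regions per 50 bp bin by the position of the CTRL replicate 2 summit relative to the gene start (negative upstream), for CTRL-only regions, regions with a peak in 1 C26 library and regions with a peak in both. All 3 classes peak at the start; the CTRL-only median is 3 bp downstream, against 12 and 19 bp upstream in the other classes.

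Ends of several genes were shared less often at CTRL-only regions than at regions with a peak in all 4 libraries, and their interval overlapped that of regions with 1 C26 list. The ends of 2 or more genes lay in 14.9% of them (223, interval 13.1 to 16.7%), against 17.6% (16.1 to 19.2%) of regions with 1 C26 list and 23.6% (21.9 to 25.4%) of regions with both. Summits of every library counted here, so regions with C26 peaks had more summits that could reach another gene. The shares are therefore not a like comparison of the classes. In all, 1278 CTRL-only regions were at 1 gene, 221 at 2 and 2 at 3, so the 1501 regions named 1712 genes. These were 24.1% of the 7113 genes with a gene-end region in both CTRL lists. Of the 1712 genes 104 also had a C26 peak at a gene end in another region, among them Tpp1, Ndufa13 and Mief2, which are named below.

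The strongest CTRL-only region was at the start of Pdk1, which encodes a pyruvate dehydrogenase kinase that restrains the entry of pyruvate into the TCA cycle (chr2:71872820-71873727). Its enrichment was 14.7-fold in CTRL replicate 1 and 17.1-fold in CTRL replicate 2, its nearest summit was 4 bp from the start, and the nearest C26 peak lay 483435 bp away. Second was Nedd1, whose protein brings gamma-tubulin to the centrosome, at 11.7-fold and 14.2-fold in the 2 CTRL libraries. Taf10, whose protein belongs to TFIID, the complex that recognizes core promoters, shared the third region with Tpp1, a lysosomal peptidase, at 10.7-fold and 17.1-fold. Their percentiles in the 2 lists lay between 79.5 and 87.3. Nipsnap2, which encodes a mitochondrial protein, had 12.7-fold and 18.2-fold, and the region of Zc3h11a and of Zbed6, a transposon-derived repressor of Igf2 in muscle, had 13.8-fold and 13.2-fold. Las1l, needed to process ribosomal RNA precursors, had 13.3-fold and 15.5-fold.

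Others of the 15 strongest regions were of mixed roles. Zfp318, a zinc finger gene, had 11.5-fold and 15.1-fold in CTRL replicates 1 and 2. Asf1a, a histone chaperone, had 10.2-fold and 21.2-fold, and the second value was the highest of any CTRL-only peak in that list. Tspyl4, the strongest region with the palindrome, had 10.5-fold and 19.1-fold. The lower percentile of these 3 regions was 77.4 to 78.0. Unc45a, a co-chaperone of myosin, had 11.7-fold and 12.8-fold, with its summit 783 bp from the gene end. The shared region of Fam216a and Gpn3 had 12.5-fold and 11.1-fold. Nfix, a transcription factor of the fetal muscle program, had 13.3-fold and 12.0-fold at 716 bp from the end. Zfp930 had 10.8-fold and 14.4-fold, and Naa25, a subunit of an N-terminal acetyltransferase, 10.5-fold and 13.8-fold.

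Genes of the mitochondrial electron transport chain were among the CTRL-only genes, and the wide intervals of their lists held the background of 24.1%. Complex I had 8 of its 31 genes with a region in both CTRL lists (25.8%, interval 13.7 to 43.2%). Complexes II to V had 5 of 29 (17.2%, 7.60 to 34.5%), and assembly factors 5 of 34 (14.7%, 6.45 to 30.1%). A share whose interval holds the background is not a result about the list. Ndufb9, an accessory subunit of complex I whose region also serves Tatdn1, had 7.60-fold enrichment in CTRL replicate 1 and 15.9-fold in CTRL replicate 2. Ndufs1, the subunit that carries iron-sulfur clusters in the electron input arm, had 6.43-fold and 10.2-fold, and Ndufb11 7.36-fold and 7.34-fold. The other complex I genes were Ndufa13, Ndufa9, Ndufa8, Ndufc2 and Ndufa3. Atp5j2 of the ATP synthase had 6.78-fold and 10.8-fold, Cox7c of cytochrome oxidase 7.44-fold and 7.34-fold, and Atp5l, also of the ATP synthase, 5.21-fold and 7.34-fold. The assembly factors included Sdhaf1 of complex II, at 6.41-fold and 14.1-fold.

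Protein import into mitochondria had a higher share, 10 of 27 genes (37.0%, interval 21.5 to 55.8%), an interval that holds the background. Chchd4, the oxidoreductase of the intermembrane space import route, had 8.49-fold and 8.43-fold in CTRL replicates 1 and 2. Timm21, of the inner membrane translocase, had 6.03-fold and 17.2-fold, and Mtx2, of the outer membrane sorting machinery, had 6.77-fold and 8.67-fold. The list also held Pam16, Timm10, Pmpca, Tomm7, Mtx1, Tomm22 and Timm8b. The mitochondrial ribosome had 10 of 51 genes, led by Mrpl10 at 9.62-fold and 11.1-fold, and mitochondrial tRNA synthetases had 2 of 12, Lars2 and Hars2. The TCA cycle and fatty acid oxidation had 5 of 26, among them Acadl, a long-chain acyl-CoA dehydrogenase, at 7.80-fold and 8.43-fold, and Cpt2, which completes the carnitine shuttle, at 4.55-fold and 11.9-fold. Slc25 carriers had 5 of 27, led by Slc25a32 at 5.42-fold and 17.6-fold, and Pdk1 was the 1 CTRL-only gene of 6 pyruvate dehydrogenase kinases and phosphatases with a CTRL region.

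Regulators of mitochondrial number and shape had 7 CTRL-only genes of 28, close to the background. Fundc1, a receptor for the autophagy of mitochondria, had 10.5-fold and 8.57-fold enrichment in CTRL replicates 1 and 2. Mfn1, which fuses outer membranes, had 7.58-fold and 8.43-fold, and Ppara, a nuclear receptor that drives fatty acid oxidation genes, had 6.87-fold and 13.3-fold. Ppargc1b, a coactivator of mitochondrial biogenesis, had 7.53-fold and 7.96-fold, and Pink1, a kinase that marks damaged mitochondria, 6.09-fold and 8.92-fold. Fis1 and Mief2, adaptors of mitochondrial fission, were the others.

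CREB1's own family and its textbook targets were absent from the CTRL-only genes. Of the genes with a region in both CTRL lists, 0 of 16 CREB and ATF factors and coactivators, 0 of 22 known CREB1 targets and 0 of 17 circadian clock genes were CTRL-only, with upper Wilson limits of 19.4, 14.9 and 18.4%. The lists share members and hold 50 different genes, of which 49 had a gene-end peak in C26 replicate 1, 38 in C26 replicate 2 and 37 in both. Their CTRL peaks were strong. The median lower percentile was 75.7, 83.1 and 75.9 in the 3 lists, against 62.8 over all 7113 genes. Of the 50 genes, 32 were above the 75th percentile, where 1.94% of all genes were CTRL-only, and 10 were between 50 and 75, where 17.9% were. A further 6 lay between 25 and 50 and 2 below 25, where 43.3% and 64.2% of all genes were CTRL-only. Without C26 replicate 1, 12 of the 50 genes were CTRL-only (24.0%) against 59.3% of all genes, among them Crtc1, Crtc2, Dusp1, Nr4a1, Nfil3 and Nr1d1. Without CTRL replicate 1, 11 of 56 genes were (19.6%) against 37.8%, among them Per2, Clock and Ppargc1a, whose region had a peak in CTRL replicate 2 alone. Without CTRL replicate 2 the count was 2 of 51, against 28.1% of all genes, and without C26 replicate 2 it was 1 of 50, against 26.2%. These 3 lists were set apart after their counts were seen, and the part of peak strength in the counts was not tested.

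Upstream of CREB1, the cAMP pathway had 4 CTRL-only genes of 12 (33.3%, interval 13.8 to 60.9%), an interval that holds the 24.1% of all genes. Akap13, an anchor protein for protein kinase A, had 5.08-fold and 7.92-fold enrichment in CTRL replicates 1 and 2. Rapgef3, a cAMP-activated exchange factor also called Epac1, had 5.12-fold and 4.89-fold. Pkia, which encodes an inhibitor of protein kinase A, had 3.54-fold and 8.57-fold, and the adenylyl cyclase gene Adcy2 3.29-fold and 5.41-fold. All 4 were weak regions, with a median lower percentile of 15.5.

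Contractile and calcium-handling genes had 6 of 16 (37.5%, interval 18.5 to 61.4%), in a list whose regions were weak overall at a median lower percentile of 29.7. Atp2a2 and Atp2a1, the calcium pumps of the sarcoplasmic reticulum in slow and fast fibers, had 7.32-fold and 9.18-fold, and 7.23-fold and 9.54-fold, in CTRL replicates 1 and 2. Mybpc2, the fast myosin-binding protein C, had 5.07-fold and 5.38-fold. The others were Mb (myoglobin), Tnni2 (fast troponin I) and Pvalb (parvalbumin). Myogenic regulators had 2 of 6 (33.3%, interval 9.68 to 70.0%). The intervals of both lists hold the 24.1% of all genes. Myod1, the myogenic determination factor, had 8.03-fold and 7.96-fold, and Sox6, a repressor of slow fiber genes, 4.17-fold and 5.51-fold.

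Genes of muscle atrophy and growth signaling had 4 of 22 (18.2%, interval 7.31 to 38.5%), an interval that holds the background. Mtor, the kinase at the center of growth signaling, had 8.96-fold and 13.9-fold in CTRL replicates 1 and 2, and Rptor, its partner in complex 1, 4.84-fold and 11.4-fold. Fbxo21, a ubiquitin ligase subunit, had 5.97-fold and 5.68-fold, and Ddit4, an inhibitor of mTOR signaling, 3.78-fold and 15.2-fold. Fbxo32, which encodes the atrophy ligase atrogin, had a region with peaks in all 4 libraries and was not CTRL-only.

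Marker genes of the labelled tissue were looked up, although phospho-CREB1 peaks alone cannot establish a tissue. Of 7 muscle marker genes, Acta1, Ckm, Tnnt3, Mylpf and Ttn had gene-end regions in both CTRL lists. None was CTRL-only, against 24.1% of all genes with such a region, which 5 genes are too few to be set against. All 5 had a peak in C26 replicate 1, and Tnnt3 had one in every library. Of the other markers, Myh4 had a gene-end peak in CTRL replicate 2 alone and Myh1 in no library. In the wider muscle lists, 16 of 39 contractile and calcium-handling genes had a gene-end region in both CTRL lists, 6 of them CTRL-only. Among myogenic regulators 6 of 19 had one, 2 of them CTRL-only. Over all protein-coding genes, 7113 of 21887 had a gene-end region in both CTRL lists. Of the markers of other cell types, 0 of 16 endothelial, 0 of 16 fibroblast and 0 of 20 leukocyte genes had such a region, and 2 of 12 adipocyte and Schwann cell genes did, neither CTRL-only.

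Genes of transcription and RNA processing were spread widely among the CTRL-only genes. RNA polymerase subunits and general factors had 16 of 58 (27.6%), led after Taf10 by Taf15 at 7.22-fold and 12.1-fold in CTRL replicates 1 and 2. Mediator, which links activators to RNA polymerase II, had 8 of 22 (36.4%, interval 19.7 to 57.0%), with Med13l at 7.77-fold and 11.1-fold and Med8 at 8.79-fold and 7.45-fold. The spliceosome had 12 of 51 (23.5%), among them Sf3b1, of the branch point complex, at 8.07-fold and 7.12-fold. Chromatin modifiers had 16 of 68, and after Asf1a came Eed, a subunit of Polycomb repressive complex PRC2, at 9.39-fold and 9.17-fold, and Hdac5, a class IIa histone deacetylase that restrains MEF2, at 7.78-fold and 12.7-fold. Zfp zinc finger genes had 45 of 154 (29.2%, interval 22.6 to 36.8%), and nuclear pore and transport genes 6 of 28, led by Ndc1 at 8.56-fold and 12.0-fold. The intervals of all these lists held the background.

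Among translation and chaperone genes, the intervals of initiation factors and chaperones lay below the background of 24.1%, and those of cytosolic ribosomal proteins and tRNA synthetases held it. Cytosolic ribosomal proteins had 11 of 70 (15.7%), with Rps20 at 7.78-fold and 10.4-fold and Rpl8 at 7.11-fold and 10.2-fold in CTRL replicates 1 and 2. Initiation factors had 4 of 42 (9.52%, interval 3.77 to 22.1%), among them Eif2ak1, a kinase that slows initiation under stress, at 7.47-fold and 12.5-fold. Cytosolic tRNA synthetases had 6 of 18 (33.3%, interval 16.3 to 56.3%), led by Gars at 10.8-fold and 11.4-fold. Heat shock proteins and chaperones had 8 of 63 (12.7%, interval 6.58 to 23.1%), led by Cct5, a subunit of the TRiC chaperonin, at 7.94-fold and 7.29-fold. The regions of initiation factors and of chaperones had median lower CTRL percentiles of 66.6 and 77.9, against 62.8 over all genes. The part of peak strength in these shares was not tested, and no interval was corrected for the 40 lists examined.

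Genes of protein turnover and membrane traffic varied around the background. The proteasome had 6 of 35 (17.1%), led by Psmb6, a catalytic subunit, at 9.62-fold and 15.2-fold in CTRL replicates 1 and 2. Ubiquitin-conjugating enzymes and deubiquitinases had 15 of 62 (24.2%), led by Ube2v1 at 8.72-fold and 11.7-fold. Autophagy had 3 of 28 (10.7%), all of early steps or of Atg8 processing. Atg14 had 7.11-fold and 12.2-fold, Ulk1 5.41-fold and 8.45-fold and Atg4d 4.69-fold and 9.13-fold. Lysosomal genes had 9 of 24 (37.5%, interval 21.2 to 57.3%), among them Lamp1, a membrane glycoprotein, at 7.38-fold and 9.30-fold, Mcoln1, a calcium channel, at 6.56-fold and 5.88-fold, and 4 subunits of the vacuolar ATPase. Rab and Vps trafficking genes had 17 of 73 (23.3%), led by Vps4a at 9.79-fold and 9.37-fold.

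Genome maintenance and cell division genes were at or slightly below the background. DNA repair had 7 of 39 (17.9%), among them Parp1 at 5.26-fold and 9.79-fold in CTRL replicates 1 and 2, and replication and cohesin had 8 of 38 (21.1%), led by Smc6 at 10.5-fold and 10.9-fold. Centrosome and cilium genes had 17 of 75 (22.7%), among them Nedd1 and Kif7, a hedgehog pathway kinesin, the second at 8.46-fold and 12.9-fold. Cyclins and cyclin-dependent kinases had 7 of 36 (19.4%), led by Ccnf at 8.31-fold and 7.83-fold.

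**Figure D4:**
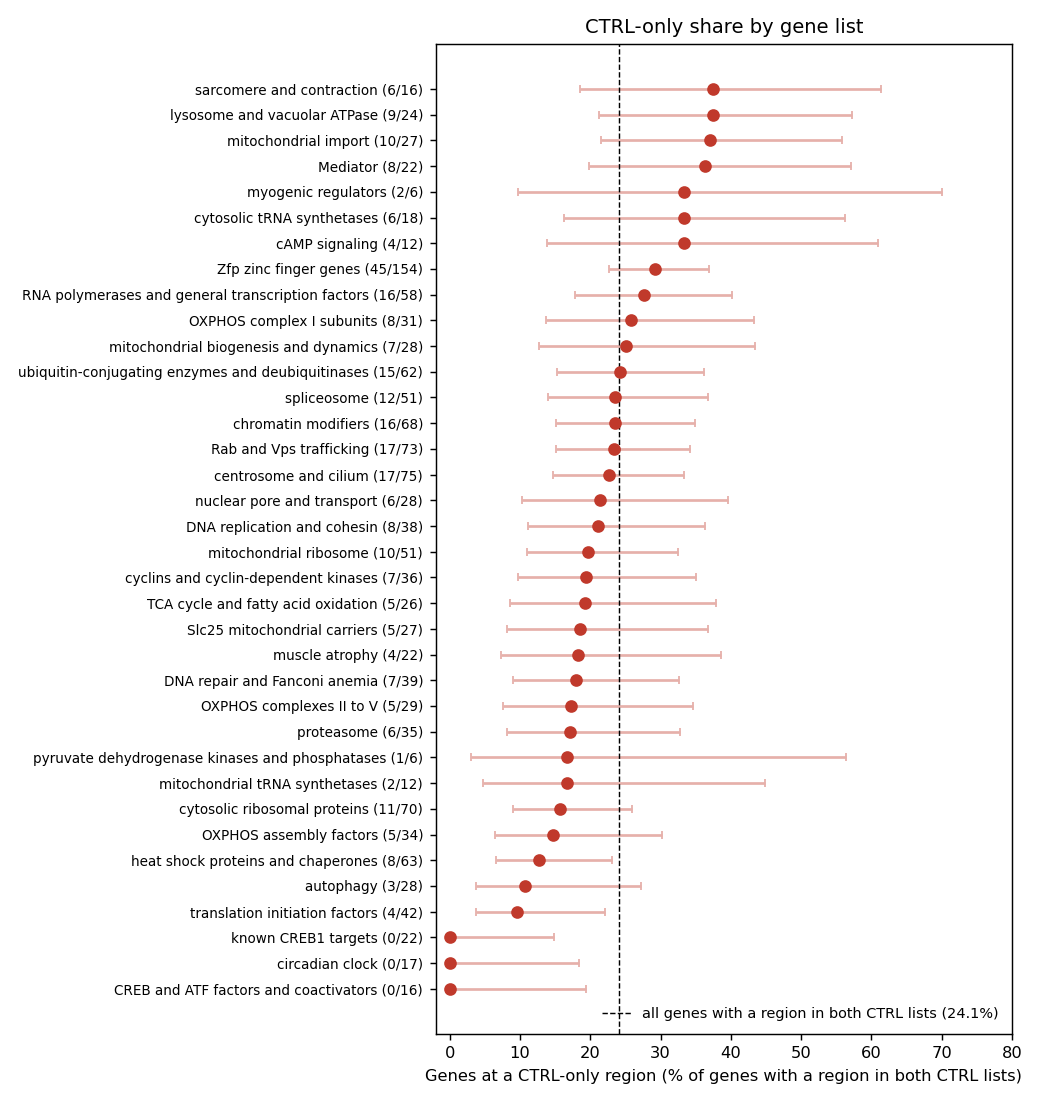
Percentage of genes at a CTRL-only region among genes with a gene-end region in both CTRL lists, for each list with at least 5 such genes (CTRL-only and total counts in brackets, 95% Wilson intervals). The dashed line is the share over all genes, 24.1%; most intervals cross it, and the CREB and ATF, known CREB1 target and circadian clock lists are at 0.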

How the data were processed

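Each of 4 phospho-CREB1 libraries of mouse muscle (2 C26, 2 CTRL) had its own deposited peak list, not pooled, called per the labels against the numbered input of its group at a q-value threshold of 0.05. The submitters' processing notes list MACS2 2.1.4, SAMtools 1.6, Picard, Bowtie2 2.3.5.1 and FastQC 0.11.2, and the build mm10 (GRCm38). A further filter appears only as an abbreviation whose meaning no source gives. The deposited score, fold enrichment (a ratio over input), −log10 p and −log10 q of each peak are the authors' own. Depth is not given in the sources used here, so no depth or floor was computed.

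Gene spans and promoter windows came from RefSeq tables of GRCm38.p6, with 21887 protein-coding genes on 21 chromosomes. Summits and gene ends were both counted from 1. Merging, counts, motif searches and 95% Wilson intervals used Python 3.11.15, pandas 2.3.3, numpy 2.4.6 and scipy 1.17.1, and the merging rule was tested on simulated data. No test was run, because the rule used the contrast. Named genes are the 15 strongest regions by the lower CTRL percentile, up to 3 per gene list, those nearest the distance limit, the 6 strongest with the palindrome, the 3 nearest to a C26 peak and the 3 weakest. Some genes that this rule names are not reported here. Genes named beyond these were chosen after their values were seen. The regions and the 40 gene lists were chosen with earlier results of these data known.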

Additional observations from a re-analysis of the deposited data

How the results depend on the processing

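Of 89 values recomputed under other settings, 59 moved by less than the spread between the CTRL libraries, by less than their counting interval or, for counts, within the limit set for counts, and 30 moved further. Trimming each list to the length of the shortest gave 209 regions, 246 genes, a CTRL-only share of 7.82%, median CTRL percentiles of 72.0 and 79.7 and 17.2% of regions at paired ends. With all lists at −log10 q of 3 or more the share was 25.6%, and with the CTRL lists alone so limited it was 22.4%. In the first setting 1 of 50 CREB, CREB1 target and clock genes (Atf1) was CTRL-only, against 25.1% of all genes. Windows of 500 and 2000 bp gave 12.2% and 18.5% of regions at paired ends. The share of CTRL-only promoters with the motif was 1.09% for the full palindrome and 25.5% for a single arm, against 23.6% of all promoters for the arm. With 1 mismatch or a spaced pair it was 7.93%, against 13.0% of all promoters. By CTRL strength the palindrome share was 0.464, 0.498, 2.76 and 10.0%. Leaving out 1 library at a time gave 1638 to 3676 regions, 1864 to 4212 genes, shares of 26.8 to 60.0%, median CTRL percentiles of 31.5 to 50.3 (replicate 1) and 40.8 to 64.8 (replicate 2), 13.7 to 16.5% of regions at paired ends and 1 to 12 genes of the CREB, target and clock lists. These were 2.0 to 24.0% of the list genes with a CTRL region, against 26.2 to 59.3% of all genes. The highest region and gene counts came without C26 replicate 1, and the counts without CTRL replicate 1 were 3084 regions and 3333 genes. The settings for the gene lists were chosen after seeing the data. No paired analysis was possible because the results come from no test and CTRL-only regions have no C26 value to pair. Unknown read depth limits any statement on the absence of a peak.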

Other observations

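By chromosome, the CTRL-only share of gene-end regions with a peak in both CTRL lists was lowest among the autosomes and X on chromosome 12, at 14.5% (31 of 214, 95% Wilson interval 10.4 to 19.8%), and highest on chromosome X, at 34.2% (41 of 120, interval 26.3 to 43.0%). Chromosome Y had 2 such regions, neither CTRL-only. Of the 26 CTRL-only regions at the far end of a gene and at no start, the strongest was at 4933440N22Rik, with 8.96-fold enrichment in CTRL replicate 1 and 11.7-fold in CTRL replicate 2. Gdf15, which encodes a stress cytokine that lowers appetite, had 7.13-fold and 9.30-fold at its far end. Mb, which encodes myoglobin, had 5.03-fold and 8.92-fold, and Bcl6, a transcriptional repressor, 6.03-fold and 6.02-fold. These genes were picked after their values were seen, and the chromosomes were compared without a test.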
